A study of Mus musculus with 6 samples.

Results

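Adipose tissue holds many cells besides adipocytes, and 10 genes by which its progenitors, fibroblasts and contractile stromal cells are commonly recognised were followed here in brown adipose tissue (BAT) with and without Letmd1. These genes were Pdgfra, Pdgfrb, Cd34, Ly6a, Dpp4, Pi16, Dlk1, Dcn, Lum and Acta2, and their members were the rows of the deposited count tables that carried one of these symbols. Each symbol was found on 1 row, which gave 10 of 23282 rows, and all 10 passed the filter on low counts that left 12995 rows to test. RNA came from the interscapular depot of 3 wild-type and 3 Letmd1 KO mice, all male, of the C57BL/6N strain and 5 weeks old. The KO mice carried a knockout-first allele, in which a lacZ and neomycin resistance cassette sits in an intron of Letmd1, in every cell of the body rather than in brown adipocytes alone. No drug or cold treatment is given in the labels of either group. The comparison asks how these stromal markers stood in whole BAT that lacked Letmd1, which encodes a mitochondrial protein.

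As background, adipocytes of both white and brown fat arise from fibroblast-like progenitors that lie around vessels and in the connective tissue septa. Most of these cells carry the receptor PDGFRα together with CD34 and Sca-1, the product of Ly6a. A DPP4+ and PI16+ population in the septa is described as the least committed of them, and ICAM1+ cells as more committed preadipocytes. Fibroblasts secrete collagens and the small leucine-rich proteoglycans decorin and lumican that bind collagen fibrils. Pericytes and smooth muscle cells, together called mural cells, carry PDGFRβ, and smooth muscle cells and activated myofibroblasts contain α-smooth muscle actin, the product of Acta2.

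QuantSeq libraries read the 3′ end of each mRNA, so a count does not grow with the length of a gene and levels of different genes can be set side by side. Totals lay between 6669577 and 14574273 counts per mouse. Levels are CPM (TMM-scaled counts, set to the same effective library size), on which a floor of 3 counts, the upper limit set by a count of 0, stands at between 0.176 and 0.397 CPM (counting error only). Letmd1 counts were 5658, 6490 and 5266 in wild-type BAT against 0, 0 and 1 in KO BAT, so the counts went with the genotype labels. Of the rows tested, edgeR called 3082 higher and 2897 lower in Letmd1 KO BAT (adjusted p under 0.05), so 23.7% of all rows rose and 22.3% fell. Each change of a marker, and each count of calls in a list below, is read against these shares. Scaling bears on every value, because the TMM factors lay between 0.852 and 0.887 in wild-type BAT and between 1.13 and 1.17 in the KO mice. Nothing in the labels says that mice of one number share a litter, and p-values measure the spread between these 6 mice.

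In Letmd1 KO BAT 8 of the 10 markers rose and none fell, against 23.7% of all rows tested that rose. The risers were the receptor gene Pdgfra, the surface markers Cd34, Ly6a and Dpp4, the secreted Pi16, the proteoglycan genes Dcn and Lum, and Acta2. Their increase ran from 1.55-fold for Ly6a to 5.33-fold for Lum. Pdgfrb and Dlk1 did not pass the test, with log2 fold changes of -0.02 and -0.38. For the same 8 markers every KO mouse lay above every wild-type mouse, a separation in that direction that 30.1% of all rows tested showed. The median log2 fold change was 1.11 over the 10 markers and 0.033 over all rows tested. Fewer cells of a type and less RNA per cell, or their opposites, cannot be told apart in bulk tissue.

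**Figure D1:**
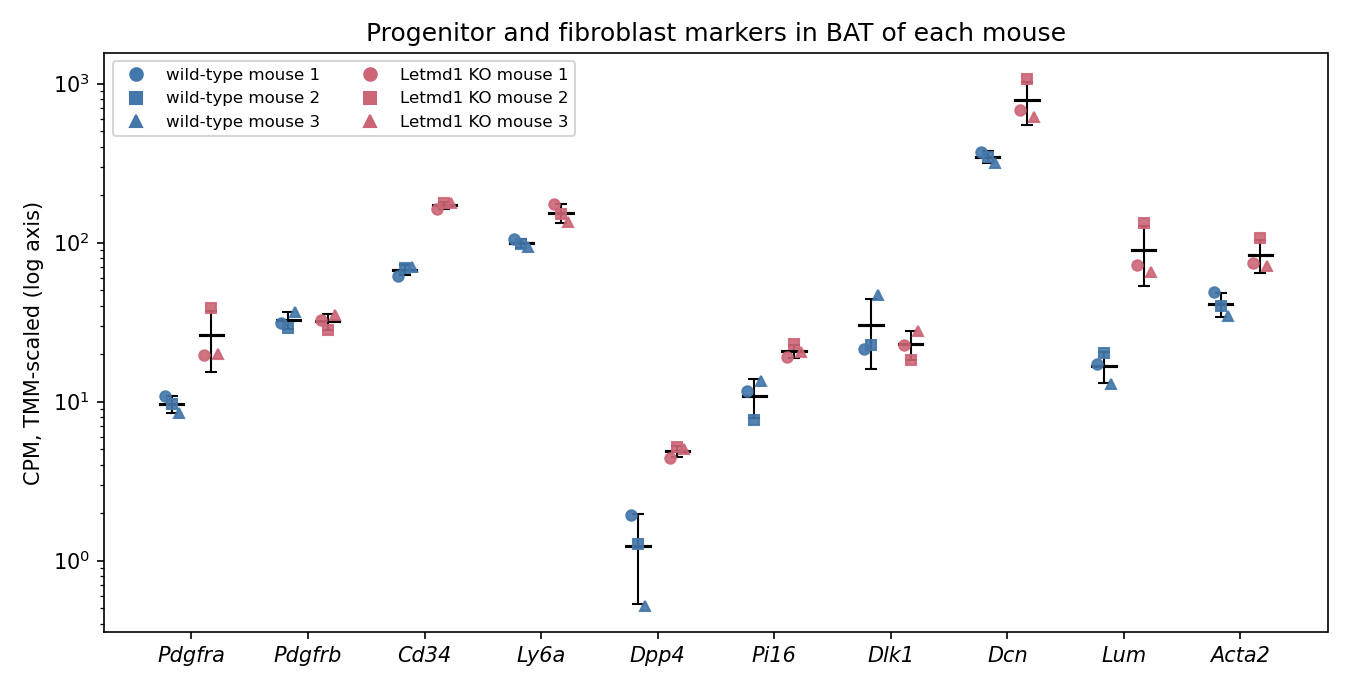
Level of each of the 10 markers in BAT of each mouse, in TMM-scaled CPM on a log axis. Symbols are single mice, wide bars are group means and error bars are SD (n = 3). The KO mice lie above the wild-type mice for 8 markers, and the groups overlap for Pdgfrb and Dlk1.

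Pdgfra (chromosome 5, 75152292 to 75198215, plus strand, GRCm38) encodes the receptor α chain that binds PDGF-A and PDGF-C and is the usual marker of adipose progenitors. Its level was 10.8, 9.64 and 8.46 CPM in wild-type BAT and 19.8, 38.6 and 19.9 CPM in KO BAT. The KO mice were all higher, and KO mouse 2 stood at close to the sum of the other two. Its level rose 2.68-fold (95% interval 1.74 to 4.12), a log2 fold change of 1.42 (standard error 0.28, edgeR adjusted p = 0.00258). Without KO mouse 2 the log2 fold change was 1.04 and still passed the test (edgeR adjusted p = 0.00225).

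Pdgfrb encodes the β chain, which binds PDGF-B and PDGF-D and marks pericytes and vascular smooth muscle as well as some progenitors. The gene (chromosome 18, 61045150 to 61085061, plus strand) is 15.54 kb from Csf1r, a receptor gene of the same class. Its level was 31.2, 29.1 and 36.9 CPM in wild-type BAT and 32.5, 28.0 and 35.2 CPM in KO BAT, and the groups overlapped throughout. The log2 fold change was -0.02 (standard error 0.15, edgeR adjusted p = 0.933), with a 95% interval from -0.35 to 0.31, which leaves room for a change of up to 1.24-fold upward. This value turns on the scaling, since by library size alone it was 0.41 (edgeR adjusted p = 0.0424), close to the shift of 0.45 that the median of all rows then showed.

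The ligands and the other class III receptors of the PDGF family did not move as one, with 3 of 6 tested genes higher and 1 lower. Pdgfa, a ligand of PDGFRα, rose from 13.1 to 22.9 CPM on average (log2 fold change 0.80), and Pdgfb, the main ligand of PDGFRβ, fell from 53.8 to 36.9 CPM (-0.54), a call lost without wild-type mouse 1. Pdgfc had a log2 fold change of 0.90 that did not pass the test (edgeR adjusted p = 0.0965), and Pdgfd was too low to test. Among the receptors, Csf1r of macrophages rose by a log2 fold change of 2.07 and Flt3 of blood cell progenitors by 3.57, the latter from at most 0.781 CPM in a wild-type mouse and with a value of 5.68 without wild-type mouse 3. Kit, the mast cell receptor 376.7 kb from Pdgfra, had 3.88, 6.99 and 38.0 CPM in wild-type BAT and between 4.82 and 6.87 CPM in KO BAT. Its log2 fold change of -1.53 (edgeR adjusted p = 0.107) rested on wild-type mouse 3, since it was 0.02 without that mouse, and it passed the test without wild-type mouse 1 (-2.02).

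Cd34 (chromosome 1, 194938819 to 194961279, plus strand) encodes a sialomucin of the cell surface that is carried by adipose progenitors and also by capillary endothelium and blood stem cells. Its fold change had the smallest standard error of the 10 markers, and its levels were 61.4, 69.5 and 70.3 CPM in wild-type BAT and 162, 177 and 177 CPM in KO BAT. No KO mouse came near the wild-type range. The level rose 2.56-fold (95% interval 2.17 to 3.03), a log2 fold change of 1.36 (standard error 0.11, edgeR adjusted p = 1.87e-05). Its relative Podxl, an endothelial sialomucin, fell from 66.1, 68.9 and 44.0 CPM to 39.7, 21.3 and 39.4 CPM (log2 fold change -0.83, edgeR adjusted p = 0.023). That call was lost without wild-type mouse 1 or 2 (-1.01 to -0.60 over the mice left out).

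Ly6a encodes Sca-1, a lipid-anchored surface protein by which mouse progenitors are sorted, also found on endothelial cells and lymphocytes. It was 105, 97.7 and 93.4 CPM in wild-type BAT and 176, 150 and 134 CPM in KO BAT. The groups did not overlap, but this was the smallest rise among the 8 markers, 1.55-fold (95% interval 1.28 to 1.88, edgeR adjusted p = 0.00268). Ly6a (chromosome 15, 74994877 to 74998031, minus strand) belongs to a cluster of related genes, of which 5 others were tested. Ly6e rose (log2 fold change 0.71) and Lynx1 fell (-0.91), while Ly6c1 (-0.42), Gpihbp1 (-0.31) and Ly6c2 (0.04) did not pass the test. Without wild-type mouse 3 Ly6c1 (-0.62) and Gpihbp1 (-0.44) did, which made 3 genes lower. The call of Ly6e was lost without wild-type mouse 1 or 2 (0.56 to 0.91 over the mice left out). Letmd1 itself is on the same chromosome, 25470991 bases away.

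Dpp4 (chromosome 2, 62330073 to 62412231, minus strand) encodes CD26, a peptidase of the cell surface that marks interstitial progenitors, and was the least abundant of the 10 markers. Its counts were 18, 12 and 4 in wild-type BAT and 40, 39 and 86 in KO BAT, or 1.94, 1.27 and 0.521 CPM against 4.39, 5.16 and 5.05 CPM. The KO mice were close together and the wild-type mice were spread 3.72-fold, down to a level near the floor. The rise was 3.82-fold with a wide 95% interval from 1.96 to 7.46 (log2 fold change 1.93, standard error 0.43, edgeR adjusted p = 0.00536). With the skeletal muscle level of each mouse as a covariate the log2 fold change was 1.91 and no longer passed the test (edgeR adjusted p = 0.0734).

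Pi16 (chromosome 17, 29317680 to 29330593, plus strand) encodes a secreted protein of the CAP family, named as a peptidase inhibitor, and marks fibroblasts of the same interstitial kind. It was 11.6, 7.62 and 13.4 CPM in wild-type BAT and 19.1, 23.0 and 20.5 CPM in KO BAT, without overlap. The level rose 1.92-fold (95% interval 1.37 to 2.69, edgeR adjusted p = 0.00641). Other CAP family genes went both ways, since Glipr1 (log2 fold change 2.81, and 2.15 without KO mouse 2) and Glipr2 (1.52) rose, Crispld1 (-1.48) fell and Crispld2 (-0.06) did not pass the test. Without wild-type mouse 1 or KO mouse 1 the call of Crispld1 was lost (-1.72 to -1.02 over the mice left out). Among the relatives of Dpp4, the fibroblast gene Fap, which lies 88.71 kb from it, rose from 4.63, 3.49 and 4.04 CPM to 14.3, 17.2 and 12.5 CPM. Dpp7 (log2 fold change 1.42) and Dpp9 (0.56) rose too, the latter not without KO mouse 1 (0.43), and Dpp8 fell (-0.61).

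The promoters of Cd34, Dpp4 and Pi16 are shown because these 3 markers rose and, of the 5 risers with an entry, are the ones that hold the motif AGGAAG. The entries are from RefSeq's annotation of GRCm38.p6, from 250 bases before to 50 after the start. They lie at chr1:194938571-194938870 on the plus strand, chr2:62412182-62412481 on the minus strand and chr17:29318632-29318931 on the plus strand. Capitals mark the one match in each to AGGAAG, a core letter run of ETS factor sites, which was searched on both strands and here lies on the opposite strand. It begins 142 bases before the start in Cd34, 236 in Dpp4 and 78 in Pi16, and so shares no position. The Pi16 window lies inside the gene span given above (from 29317680), so the annotations for windows and spans place its start differently. Of 32851 promoter windows of the same length 35.4% hold this motif, and the windows of Pdgfra and Acta2, which rose as well, and of Dlk1 do not.
Cd34: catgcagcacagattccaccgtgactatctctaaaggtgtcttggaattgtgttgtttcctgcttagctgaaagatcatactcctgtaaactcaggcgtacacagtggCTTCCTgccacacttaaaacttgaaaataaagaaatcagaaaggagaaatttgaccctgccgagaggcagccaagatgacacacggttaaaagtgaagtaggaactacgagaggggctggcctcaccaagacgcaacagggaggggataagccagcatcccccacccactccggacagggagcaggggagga
Dpp4: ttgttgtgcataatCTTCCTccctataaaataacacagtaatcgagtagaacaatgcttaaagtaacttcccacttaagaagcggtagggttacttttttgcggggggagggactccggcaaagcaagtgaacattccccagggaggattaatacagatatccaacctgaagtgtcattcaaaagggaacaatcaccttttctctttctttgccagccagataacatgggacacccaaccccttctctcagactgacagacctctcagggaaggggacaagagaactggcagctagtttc
Pi16: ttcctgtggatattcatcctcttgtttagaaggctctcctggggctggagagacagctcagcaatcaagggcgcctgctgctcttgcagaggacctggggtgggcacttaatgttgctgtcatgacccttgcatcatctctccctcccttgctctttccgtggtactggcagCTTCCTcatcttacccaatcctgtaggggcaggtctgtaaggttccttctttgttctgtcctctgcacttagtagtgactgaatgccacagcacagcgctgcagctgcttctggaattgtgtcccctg

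Dlk1, also called Pref-1, encodes a Notch-like transmembrane protein that holds preadipocytes back from differentiation and is lost as they mature. Its level was 21.3, 22.6 and 46.5 CPM in wild-type BAT and 22.7, 18.2 and 27.7 CPM in KO BAT. The groups overlapped, and wild-type mouse 3 alone stood above all the others. The log2 fold change was -0.38 (standard error 0.30, edgeR adjusted p = 0.322), with a 95% interval from -1.05 to 0.28, and without wild-type mouse 3 it was 0.06. Dlk1 is expressed from the paternal copy of an imprinted domain (chromosome 12, 109452823 to 109463336, plus strand). The noncoding RNA Meg3, expressed from the maternal copy 77.66 kb further on, rose from 142, 133 and 117 CPM to 342, 316 and 282 CPM (log2 fold change 1.26, edgeR adjusted p = 4.87e-05). Rian, a further maternal noncoding RNA of the domain, rose by 0.91 on the log2 scale (edgeR adjusted p = 0.011), a call lost under quantile normalization (0.48), with the skeletal muscle level as a covariate and at an adjusted p under 0.01.

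Of 10 other imprinted genes of growth control, 5 rose and 1 fell, with Plagl1 (log2 fold change 2.09) and Nnat (2.09) at the top, Ndn (-0.44) lower, and Peg3 (-0.46) and Cdkn1c (-0.56), which did not pass the test, at the bottom. With the skeletal muscle level as a covariate 2 were higher, and over the mice left out 4 to 5 were higher and 0 to 2 lower. The call of Ndn was lost without wild-type mouse 2 or 3 or any 1 of the 3 KO mice. Cdkn1c passed the test without wild-type mouse 3 (-0.80), and without KO mouse 2 both Cdkn1c (-0.89) and Peg3 did. Where 23.7% of all rows rose and 22.3% fell, none of 12 tested genes of the Notch pathway rose and 2 fell. These were Dlk2, the paralog of Dlk1, which went from 5.49, 6.78 and 8.73 CPM to 2.96, 3.83 and 3.23 CPM (log2 fold change -1.07), and the Notch target Heyl (-0.65). The call of Heyl was lost without wild-type mouse 1 or 3 or KO mouse 2 or 3 (-0.80 to -0.52 over the mice left out). The receptor gene Notch2 (0.49) and the ligand gene Jag2 (0.46) had the highest values and did not pass the test. Notch2 did pass it without wild-type mouse 3 (0.79), and with library size alone 3 Notch pathway genes were higher.

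Dcn encodes decorin and was the most abundant of the 10 markers in every mouse. Wild-type BAT held 373, 348 and 315 CPM of it and KO BAT 682, 1064 and 617 CPM. KO mouse 2 was the highest by far, yet the lowest KO mouse was still above the highest wild-type mouse. The rise was 2.28-fold (95% interval 1.67 to 3.11, log2 fold change 1.19, edgeR adjusted p = 0.00114), and without KO mouse 2 the log2 fold change was 0.91 (edgeR adjusted p = 0.000333).

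Lum encodes lumican and had the largest fold change of the 10. It rose from 17.2, 20.3 and 12.9 CPM in the wild-type mice to 72.8, 133 and 65.0 CPM in KO BAT. The lowest KO mouse was more than 3 times the highest wild-type mouse. The increase was 5.33-fold with a 95% interval from 3.41 to 8.34 (log2 fold change 2.41, standard error 0.29, edgeR adjusted p = 0.000165), and without KO mouse 2 the log2 fold change was 2.03.

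Dcn (97479609 to 97518143) and Lum (97565128 to 97572703) are neighbours on the plus strand of chromosome 10, with 46.98 kb between them and no protein-coding gene in the gap. The next genes on the same side are the proteoglycan genes Kera and Epyc, at 34.17 and 30.38 kb gaps. Both were nearly without counts, since Kera had some in KO mouse 2 only and Epyc in KO mouse 3 only, each under 1 CPM. Among 7 further tested genes of small leucine-rich proteoglycans, 4 rose and 1 fell. Ogn went from 13.6, 10.3 and 9.38 CPM to 28.0, 32.5 and 31.5 CPM (log2 fold change 1.47), Bgn, encoding biglycan, rose by 1.34 on that scale, Omd by 1.36 and Aspn by 0.98. The call of Omd was lost when any one of the 6 mice was left out (1.08 to 1.65), so that 3 genes were then higher. Podn was at 0.23 and did not pass the test. Prelp, encoding a heparin-binding member of the family, moved the other way, from 213, 208 and 142 CPM to 56.4, 70.3 and 62.0 CPM (log2 fold change -1.58, edgeR adjusted p = 8.41e-05).

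Acta2 (chromosome 19, 34241090 to 34255590, minus strand) encodes the smooth muscle form of actin. It was 48.9, 40.0 and 34.6 CPM in wild-type BAT and 74.2, 107 and 71.1 CPM in KO BAT, with KO mouse 2 again the highest and no overlap. The rise was 2.03-fold (95% interval 1.52 to 2.72, log2 fold change 1.02, edgeR adjusted p = 0.00187). Of the mural gene list given further on, Tagln, Myh11 and Cnn1 did not pass the test and Des, described there, was called higher. Tagln, encoding the actin-binding protein transgelin, was 20.0, 20.4 and 20.1 CPM against 19.5, 22.3 and 17.7 CPM (log2 fold change -0.03, edgeR adjusted p = 0.892). By library size alone Tagln was at 0.39 (edgeR adjusted p = 0.0431), again near the shift of all rows. The smooth muscle myosin gene Myh11 had a log2 fold change of 0.27 and the calponin gene Cnn1 one of 0.11, the latter with a 95% interval from -0.87 to 1.08 that holds the value of Acta2.

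Among the actin paralogs both cytoplasmic forms rose, Actb by 1.02 and Actg1 by 1.20 on the log2 scale, and the enteric form Actg2 had counts near the floor. The skeletal muscle form Acta1, one of the 12 genes by which muscle RNA is measured here, was at 0.646, 82.2 and 0.391 CPM in wild-type BAT and 76.2, 68.9 and 290 CPM in KO BAT, and the cardiac form Actc1 was called higher (1.84). The call of Actc1 was lost without wild-type mouse 1 or 3 or KO mouse 3 (1.30 to 2.96 over the mice left out). Stretches of 75 bases, the read length, from the last 500 bases of Acta2 transcripts were shared with no other gene. The same held for the remaining markers, except that 1 of 762 such stretches of Ly6a is shared with Ly6c1. Only exact matches were searched, so reads placed with mismatches are not covered.

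The promoter of Acta2 is set beside that of Cnn1, another smooth muscle gene. Acta2 passed the test and Cnn1 did not, but the interval of Cnn1 holds the value of Acta2. No difference between the 2 genes is therefore shown. The Acta2 window lies at chr19:34255324-34255623 on the minus strand and the Cnn1 window at chr9:22099003-22099302 on the plus strand of GRCm38.p6. Capitals mark 2 matches to the CArG box, the site of serum response factor, with up to 1 substitution in its core of A and T, and 1 TATATAA after the annotated start. The boxes begin 84 and 34 bases before the start and read as a match on both strands. Such a box is in 9.98% of the 32851 windows, a CArG box without substitution in 1.63% and TATATAA in 3.24%. The Cnn1 window holds none of these letters, which says nothing of sites outside it.
Acta2: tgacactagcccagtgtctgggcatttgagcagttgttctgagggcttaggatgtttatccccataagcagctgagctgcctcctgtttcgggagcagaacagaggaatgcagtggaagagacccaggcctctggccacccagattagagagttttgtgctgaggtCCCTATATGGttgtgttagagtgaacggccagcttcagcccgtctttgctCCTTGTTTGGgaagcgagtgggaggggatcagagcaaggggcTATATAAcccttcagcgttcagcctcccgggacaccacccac
Cnn1: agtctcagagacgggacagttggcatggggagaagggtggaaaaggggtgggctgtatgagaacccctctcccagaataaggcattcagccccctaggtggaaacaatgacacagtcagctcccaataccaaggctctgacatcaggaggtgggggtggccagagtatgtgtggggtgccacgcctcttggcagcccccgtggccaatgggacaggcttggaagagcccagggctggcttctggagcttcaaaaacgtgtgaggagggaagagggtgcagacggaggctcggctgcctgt

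The order of the 10 markers by level differed in part between the genotypes. In wild-type BAT Dcn (345 CPM on average) led, followed by Ly6a (98.8) and Cd34 (67.1), each clear of the next. Acta2 (41.2), Pdgfrb (32.4) and Dlk1 (30.1) overlapped in their ranges, Lum (16.8) overlapped with Pi16 (10.9) and Pi16 with Pdgfra (9.62), but Lum not with Pdgfra, and Dpp4 (1.24) came last. In Letmd1 KO BAT Dcn (788 CPM) again led and Dpp4 (4.87) came last. Cd34 (172) and Ly6a (154) overlapped in second place, Lum (90.3) had moved up beside Acta2 (84.0), and Pdgfrb (31.9), Pdgfra (26.1), Dlk1 (22.9) and Pi16 (20.9) formed a group in which neighbours overlapped. Among the KO mice, mouse 2 had the highest level for 7 of the 10 markers. The summed level of the 10 markers was 683, 645 and 632 CPM in wild-type BAT and 1265, 1744 and 1173 CPM in KO BAT.

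**Figure D2:**
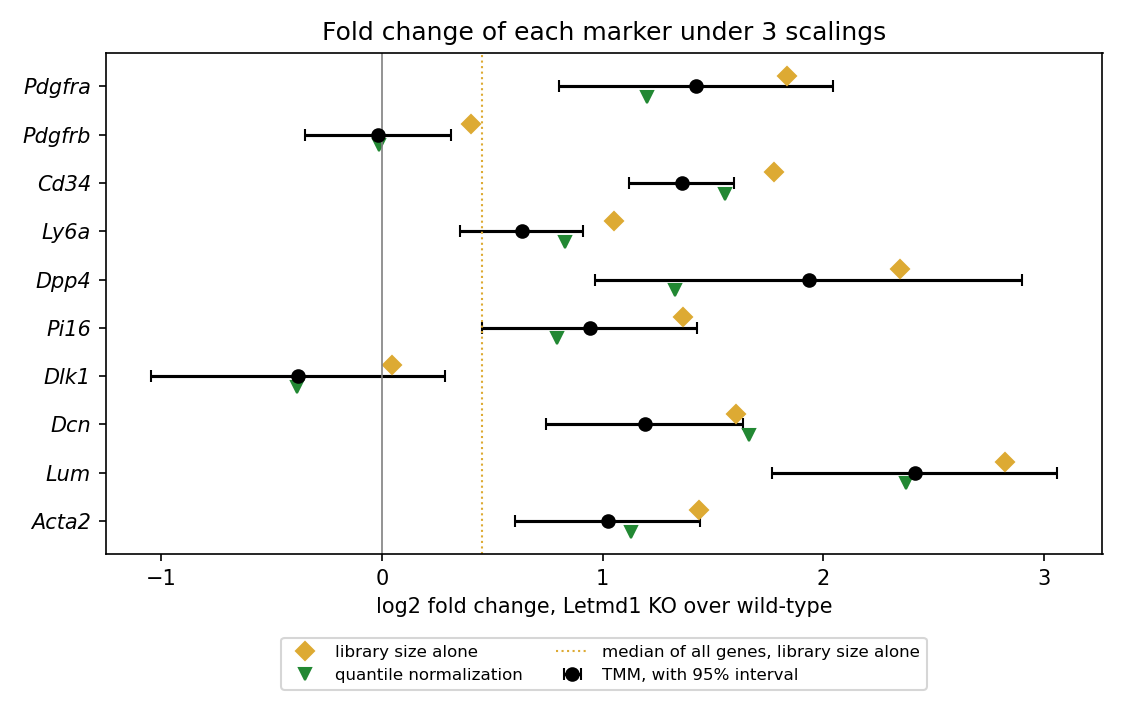
Log2 fold change of each marker, Letmd1 KO over wild-type, under 3 ways of scaling. Black points with bars are TMM-scaled values with 95% intervals, diamonds are scaled by library size alone, triangles are quantile-normalized and the dotted line at 0.45 is the median of all rows by library size alone. The 8 markers that rose lie above 0 under all 3, and Pdgfrb lies near 0 or near the dotted line.

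The scaling moved the size of the rises but not their direction, as the plot of fold changes under 3 scalings shows. By library size alone the log2 fold changes of the 8 risers ran from 1.05 for Ly6a to 2.82 for Lum, and under quantile normalization from 0.79 for Pi16 to 2.37 for Lum. Taken from the median of all rows, the values by library size alone were 0.60 for Ly6a, 1.32 for Cd34, 1.38 for Pdgfra and -0.05 for Pdgfrb.

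Ratios of counts within one mouse do not depend on library scaling, and 7 of them, chosen after the values were seen, are given as a description of which markers parted from their relatives. Pdgfra over Pdgfrb was 0.345, 0.331 and 0.230 in wild-type BAT and 0.608, 1.38 and 0.566 in the KO mice. Cd34 over the endothelial gene Pecam1 was 0.593, 0.665 and 0.623 against 1.39, 1.85 and 1.53. Ly6a over Ly6c1 was 0.455, 0.567 and 0.733 against 1.16, 1.31 and 1.02. In each of these ratios every KO mouse stood above every wild-type mouse.

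The matrix and contractile genes parted too. Lum over Dcn was 0.0462, 0.0585 and 0.0409 in wild-type BAT and 0.107, 0.125 and 0.105 in the KO mice. Dcn over Prelp was 1.75, 1.67 and 2.21 against 12.1, 15.1 and 9.96, and Acta2 over Tagln 2.44, 1.96 and 1.73 against 3.80, 4.78 and 4.01. Dlk1 over Meg3 was the one ratio that was lower in every KO mouse, at 0.150, 0.169 and 0.397 against 0.0664, 0.0578 and 0.098. As log2 ratios the differences between the genotypes lay between 1.01 and 2.71 for the first 6 and at -1.58 for the last. For each of the 7 a two-sided exact permutation test gave p = 0.1 (0.1 after Benjamini-Hochberg adjustment), the smallest that 3 mice against 3 allow. Since the pairs were chosen after their values were seen, this test adds nothing to the description.

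**Figure D3:**
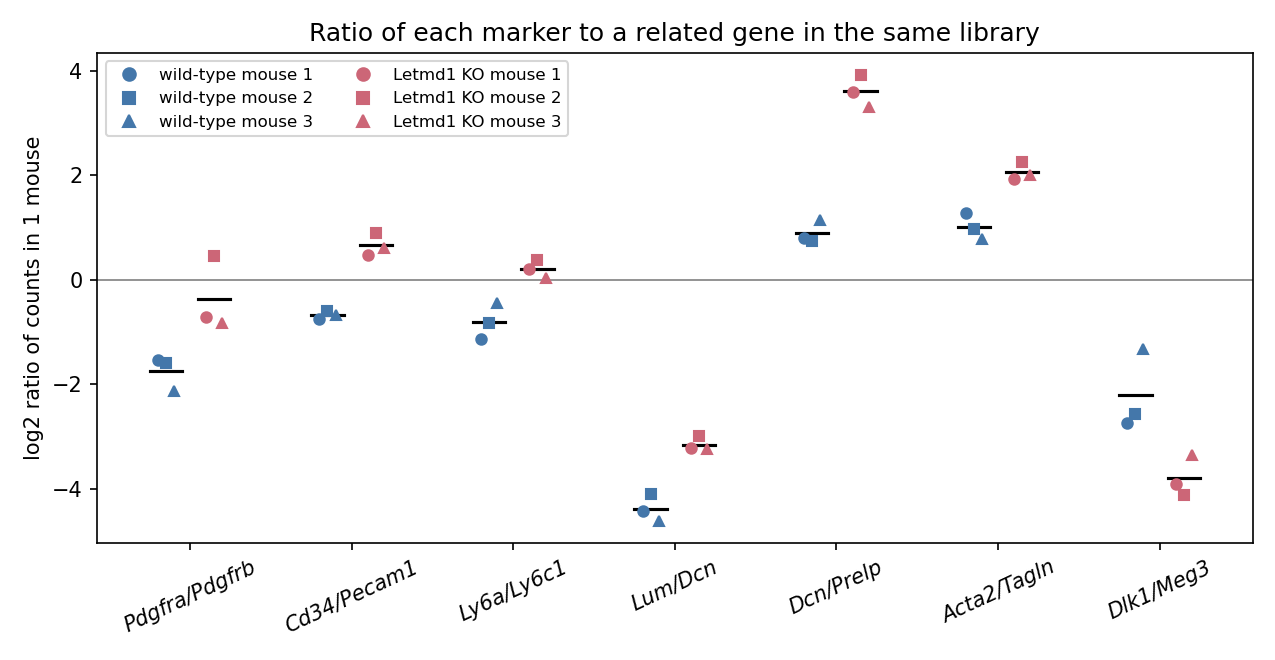
Log2 ratio of the counts of 7 gene pairs in each mouse, with symbols for single mice and bars for group means (n = 3). The wild-type and KO mice do not overlap in any pair, and Dlk1 over Meg3 is the pair that is lower in the KO mice.

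The wider fibroblast programme, given by a list of 19 tested genes that shares none with the 10 markers, had 14 genes higher, none lower and a median log2 fold change of 1.61, where 23.7% of all rows rose. The list covers matrix, surface and transcription factor genes. Mfap4, encoding a protein of elastic fibres, rose by 2.26 and Pdpn, encoding podoplanin, by 2.15, and both are low in level (at most 18.8 CPM). Without KO mouse 1 Mfap4 did not pass the test (2.04). Among the abundant genes of the list, the fibrillar collagen gene Col3a1 was at 769 CPM on average in wild-type and 2554 CPM in Letmd1 KO BAT. At the other end Cygb, encoding the cytoglobin of stellate cells and fibroblasts, had a log2 fold change of 0.01 and Lox, encoding the collagen crosslinking enzyme, one of 0.17, and neither passed the test.

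Genes of the DPP4+ interstitial progenitor, in a list of 10 tested genes, were higher for 7 and lower for 1. Fn1, encoding fibronectin, went from 23.9, 19.1 and 12.0 CPM to 102, 98.3 and 90.7 CPM (log2 fold change 2.39), and Smpd3, a sphingomyelinase gene, rose by 2.30. Cd55, the complement regulator by which this population is sorted, had 2.58, 3.71 and 5.08 CPM against 2.63, 7.67 and 5.40 CPM and did not pass the test (edgeR adjusted p = 0.395). Ackr3, encoding a scavenging receptor for the chemokine CXCL12, fell from 83.9, 42.5 and 77.6 CPM to 13.0, 14.8 and 14.4 CPM (log2 fold change -2.27, edgeR adjusted p = 9.02e-05). With the skeletal muscle level as a covariate, 4 genes of this list were higher.

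The preadipocyte list held genes of ICAM1+ preadipocytes together with genes of F3+ stromal cells, so its counts belong to neither population alone. Of its 8 tested genes 4 rose and 1 fell, with a median of 0.66. Icam1, which names the ICAM1+ population, rose from 4.20, 3.39 and 5.60 CPM to 9.88, 9.65 and 10.9 CPM (log2 fold change 1.21), and Vit was called higher (1.54), a call lost without wild-type mouse 1 or 3 or KO mouse 2 or 3 (1.18 to 2.23 over the mice left out). F3, the coagulation factor gene that marks a further stromal population, fell from 53.5, 65.8 and 95.7 CPM to 14.0, 29.5 and 27.7 CPM (log2 fold change -1.59, edgeR adjusted p = 0.00191). Fmo2 had a log2 fold change of -0.23 and did not pass the test. With the skeletal muscle level as a covariate, or at an adjusted p under 0.01, 1 gene of this list was higher.

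Of 12 tested regulators of adipogenesis 3 were higher and 2 lower, with a median of 0.19. These counts lay near the shares of all rows, of which 23.7% rose and 22.3% fell. With library size alone 7 were higher and 1 lower, and with the skeletal muscle level as a covariate 1 was lower. Sox9, a transcription factor gene of chondrocytes and of immature progenitors, rose from 3.98, 3.18 and 4.56 CPM to 45.9, 45.1 and 89.7 CPM (log2 fold change 3.96, edgeR adjusted p = 2.05e-05). The early adipogenic factors parted, since Cebpd rose by 1.22 and Cebpb fell by 1.13 on the log2 scale. Klf2, a repressor of adipogenesis that is also high in endothelium, fell by 0.89.

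Of 12 tested mural cell genes 2 were higher and 2 lower, with a median of -0.17. Both counts were near the shares of all rows, 23.7% higher and 22.3% lower. The pericyte gene Rgs5 fell from 65.7, 97.2 and 95.6 CPM to 50.3, 37.4 and 48.3 CPM (log2 fold change -0.92) and Kcnj8, a potassium channel gene of pericytes, by 0.79 on that scale. Cspg4, encoding the proteoglycan NG2, rose by 0.50 and Des, encoding desmin, was called higher (0.64), a call lost without wild-type mouse 1 or 2 or KO mouse 1 or 3 (0.41 to 0.87 over the mice left out). The count of higher mural genes was 5 by library size alone and 1 under several other settings.

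Genes of activated myofibroblasts were higher for 5 of 7 tested genes and lower for none, with a median of 1.0. Cthrc1, a collagen-repeat gene of injured tissue, rose by 2.55 from at most 0.741 CPM in a wild-type mouse, and by 3.96 without wild-type mouse 2. That call was lost with the skeletal muscle level as a covariate (1.68). Tnc (0.42) and Lox (0.17) did not pass the test. With the skeletal muscle level as a covariate, or at an adjusted p under 0.01, 3 of these genes were higher.

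**Figure D4:**
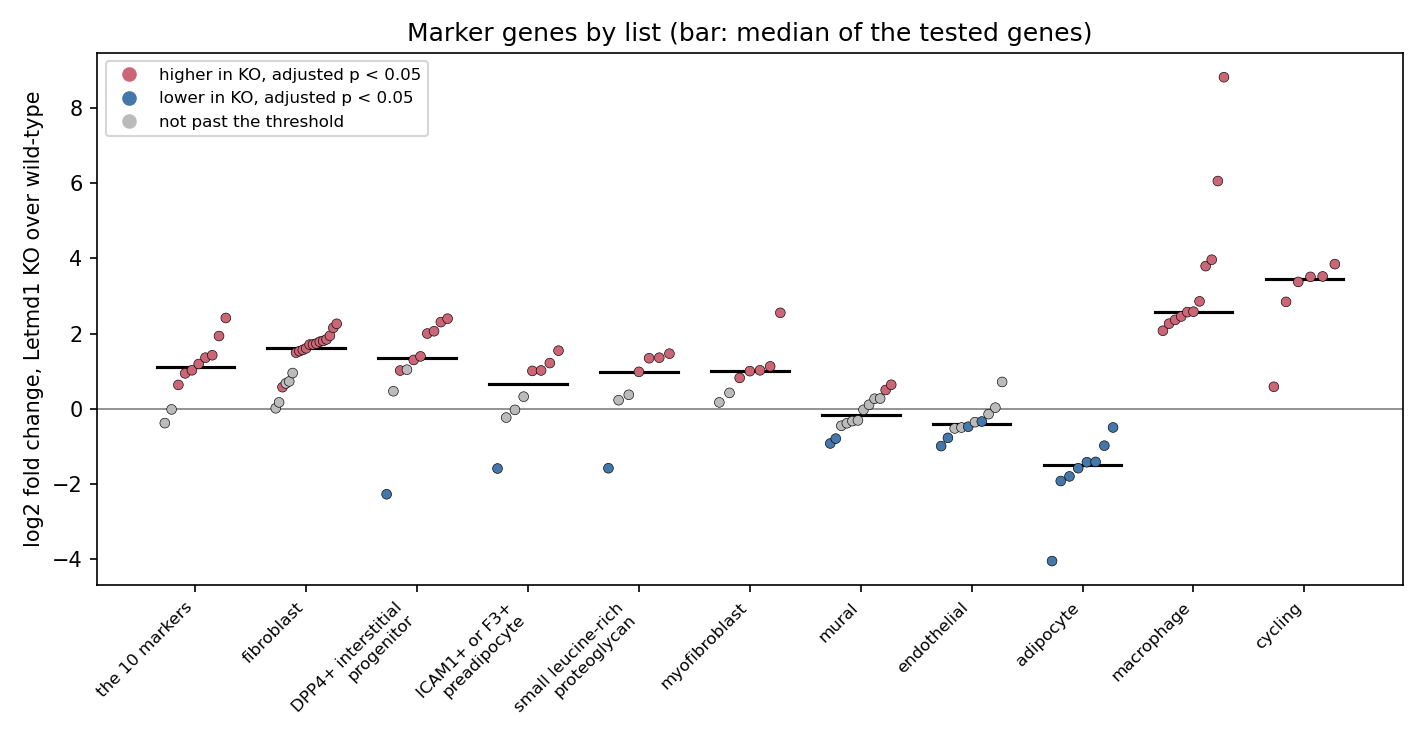
Log2 fold change, Letmd1 KO over wild-type, of each tested gene in the list of 10 markers and in 10 lists of other marker genes, with a bar at the median of a list. Colours give the edgeR call at an adjusted p under 0.05. The fibroblast list has its median at 1.61, the macrophage list at 2.58 and the adipocyte list at -1.50.

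Markers of other cell types also differed between the genotypes, and their part in the rises of the 8 stromal markers was not tested. All 11 macrophage markers rose, with a median of 2.58, from a summed level between 178 and 253 CPM in the wild-type mice to 1684, 2634 and 1467 CPM in KO BAT. KO mouse 2 was the highest for this sum as it was for 7 of the 10 stromal markers. Lgals3, encoding galectin-3, rose by 6.05 on the log2 scale, and the lipid receptor gene Trem2, under the floor in all wild-type mice, was between 7.05 and 49.96 CPM in the KO mice. At the lower end were Mrc1 (2.26) and Csf1r (2.07). Interferon-stimulated genes were higher for 8 of 10, led by Ifi44 (3.05) and Isg15 (2.38), while Rsad2 (0.47) did not pass the test but did so without wild-type mouse 1 (0.64) or KO mouse 3 (0.66). Of 2 T cell markers tested, Cd4, at 0.861, 0.318 and 1.82 CPM in wild-type BAT and 1.65, 4.76 and 3.23 CPM in KO BAT, was called higher (1.70) and Cd3d (-0.19) did not pass the test. The call of Cd4 was lost without wild-type mouse 1 or 2 or KO mouse 2 or 3 (1.24 to 2.40 over the mice left out).

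Endothelial cells can carry Cd34 and Ly6a as well, and their own markers had no gene higher and 4 of 10 lower, with a median of -0.42. With library size alone or with the skeletal muscle level as a covariate 1 was lower, and over the mice left out 2 to 4 were, with 2 without wild-type mouse 1 or KO mouse 2. With library size alone 1 was higher. Kdr, the main receptor of VEGF-A, fell by 0.99 and Flt1 by 0.77, Pecam1 was at 0.03 and Cldn5, at 0.71, did not pass the test, though it did without wild-type mouse 3 (1.56) and was at 0.24 without wild-type mouse 1. Adipocyte markers fell for all 8 genes, with a median of -1.50. Ucp1, the uncoupling protein of brown fat, fell most (log2 fold change -4.05, 255 to 476 CPM in KO BAT) and Cidec fell by 1.92, or by 2.55 without KO mouse 2, while Lipe (-0.50) fell least and was at 0.33 under quantile normalization. Adipoq, Plin1 and Fabp4 of this list were well above the floor in all 6 mice.

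Schwann cell markers rose for 5 of 6 tested genes, among them the myelin gene Mbp (1.55), Sox10 (1.42) and Pmp22 (1.07), with Ncam1 (0.57) not past the test. With the skeletal muscle level as a covariate 2 of the 6 were higher, and the call of Sox10 was lost without wild-type mouse 1 or 2 or KO mouse 1 (0.88 to 1.70 over the mice left out). All 6 genes of proliferating cells rose, namely Top2a (3.85), Mki67 (3.52), Ccnb1 (3.51), Birc5 (3.37), Cdk1 (2.84) and Ccna2 (0.58), and in which cells they were expressed was not measured. Erythroid genes did not pass the test, at between -0.51 for Alas2 and -0.21 for Hba-a1, with Hba-a2 (-0.43), Hbb-bs (-0.30) and Hbb-bt (-0.29) between them. Without wild-type mouse 3 Alas2 (-0.66) was called lower. Of the mesothelial markers, Upk3b and Wt1 were listed at 0 in all 6 mice and Msln was under the floor in all. Krt19 was listed at 0 in the wild-type mice and was at 0.549, 0.264 and 0.470 CPM in the KO mice. The value of KO mouse 2 was under its floor of 0.397 CPM. With no filter on low counts 1 gene of the list was called higher. Lrrn4, the one gene tested, fell from between 6.68 and 8.73 CPM to between 1.17 and 1.98 CPM.

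Skeletal muscle RNA varied between mice of one genotype. The summed level of 12 muscle genes was 81.9, 497 and 94.7 CPM in wild-type BAT and 460, 354 and 1303 CPM in KO BAT, so wild-type mouse 2 and all KO mice held more. Myl1 alone gave 76.9 CPM of this sum in wild-type mouse 1 and 91.2 CPM in wild-type mouse 3. The mean log2 CPM of the 12 genes was -0.71, 4.63 and -0.70 in wild-type BAT and 4.66, 4.27 and 6.26 in KO BAT. Of these genes 2 passed the test, Myh1 (3.27, and 1.84 to 7.32 over the mice left out) and Myh2 (3.15, and 2.21 to 9.39). Tnnt3 (1.81) and Myl1 (-0.04) were the lowest, and Tnnt3 was at 11.57 and past the test without wild-type mouse 2. This count rested on single mice, being 11 without wild-type mouse 2 and 0 without wild-type mouse 1, wild-type mouse 3 or KO mouse 3, and it was 10 under quantile normalization and 0 by DESeq2. With this level as a covariate 7 of the 8 markers that rose still passed the test, with log2 fold changes of 0.70 for Ly6a, 1.16 for Acta2, 1.30 for Cd34, 1.30 for Dcn, 1.46 for Pi16, 1.60 for Pdgfra and 2.34 for Lum (edgeR adjusted p between 0.00143 and 0.0307), and Dpp4 did not. Among the wild-type mice the muscle level was high in mouse 2 only, so the fit with the covariate parts muscle from genotype mainly through that mouse. Without wild-type mouse 2, as without any other single mouse, 8 markers were higher.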

How the data were processed

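BAT of 3 wild-type and 3 Letmd1 KO mice was sequenced as single-end QuantSeq reads of 75 bases. The authors aligned them with Bowtie2 and took gene coverage with Bedtools from reads placed once or several times. They deposited raw counts per gene symbol, and per the labels the build was mm10. The annotation, the handling of multiple alignments and the use of strand are not given in the sources used here, and Pdgfra, Cd34, Dpp4 and Pi16 overlap antisense genes. The quantile normalization named in the study's methods is not in the counts.

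Counts were scaled with TMM and tested with edgeR 4.0.16 (quasi-likelihood, R 4.3.3) after its default filter (minimum count 10, total 15), with Benjamini-Hochberg adjustment over all 12995 rows and a threshold of 0.05. The standard error is the log2 fold change over the root of F. Two-sided exact permutation tests were used for ratios. The steps were tested on simulated counts in which few genes changed, as many up as down, so this test does not bear on the scaling. Within a genotype mice differed by more than counting noise (chi-square over degrees of freedom 11.9 to 36.9). Positions came from GENCODE vM21, promoters from RefSeq, which held 6 of the 10 markers. Named were all markers, all tested genes of small lists and of the markers' families, Letmd1, and the 2 highest and 2 lowest genes of each further list; Col3a1, Bgn, Aspn, Ndn, Adipoq, Fabp4 and genes too low to test were named after their values were seen. A few genes under this rule are not reported here. Markers and lists were chosen with earlier results of these data known. Alternatives were other scalings, filters, tests and thresholds, a replicate block, a muscle covariate (DESeq2 1.42.0, limma 3.58.1) and leaving out each mouse.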

Additional observations from a re-analysis of the deposited data

How the results depend on the processing

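Under 16 alternatives the 8 markers that rose gave 127 values, all above 0, of which 126 passed the test. The exception was Dpp4 with the skeletal muscle level as a covariate (log2 fold change 1.91, edgeR adjusted p = 0.0734), and Dpp4 was not tested where a mean of at least 50 counts was asked for. Pdgfrb and Tagln, which did not pass the test as reported, were called higher with library size alone (0.41 and 0.39). That scaling raised the median of all rows from 0.033 to 0.45. Lipe reversed to 0.33 under quantile normalization, for which the cause was not tested. The number of rows past the threshold was 5979. It was 3528 with the muscle covariate, a level that was high in all KO mice and low in 2 of 3 wild-type mice (the cause was not tested), 3939 at an adjusted p under 0.01, and 4842 to 5868 with single mice left out. With library size alone 5891 rows were higher and 1371 lower (81.1% of calls higher against 51.5%), and under quantile normalization 2713 were higher and 3078 lower. Between mice of the same replicate number the correlations of deviations were 0.069, -0.11 and -0.087. With 3 mice of each genotype these cannot show whether such mice share a litter. The replicate block gave 5599 rows past the threshold and changed no call of a marker. With the muscle covariate the genes higher fell to 4 in the interstitial progenitor list, 1 in the preadipocyte list, 1 in the mural list and 3 in the myofibroblast list. At an adjusted p under 0.01 they were 1, 1 and 3 in the latter 3 lists. Mural genes higher were 5 with library size alone, 1 with RLE factors, 1 under quantile normalization and 1 to 2 when each mouse was left out, and myofibroblast genes 3 with the filter at a mean of 50 counts. A gene past the threshold neither as reported nor under an alternative was given no direction. With library size alone the falls of Pdgfb, Podxl, Lynx1, Crispld1, Dpp8, Dlk2, Heyl and Ndn did not pass the test. Depth limits Dpp4 most, at 4 counts in wild-type mouse 3.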
